A study of Mus musculus with 8 samples.

Results

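Luteinisation is the change by which granulosa cells, the somatic cells that surround the oocyte and make estradiol, turn into progesterone-making luteal cells after the surge of luteinising hormone. The 5 genes described here, Rgcc, Parm1, Sfrp4, Prlr and Ptgfr, are known to rise during that change, and they were taken by symbol from a table of 51886 genes. All 5 were present, and all 5 passed the filter on low values that left 14472 genes for testing. A group of 4 libraries came from PGR-A KO mice, in which the A isoform of the progesterone receptor is knocked out (here knockout), and 4 came from wild-type (WT) mice of the same line, PRAKO in the labels. Mice of both genotypes, aged 21 to 27 days, received 5 IU eCG, a hormone that makes follicles grow, and 46 h later 5 IU hCG, which stands in for the ovulatory surge. Granulosa cells were taken 8 h after hCG, and each library pooled the cells of 2 to 3 mice. The labels do not give the strain background, the form of the deletion or whether littermates were used.

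In the rodent ovary the surge raises cAMP in granulosa cells and induces the progesterone receptor, and within hours the cells begin to leave the cell cycle and to make progesterone. The members cover several roles in that change. Sfrp4 encodes a secreted protein that binds WNT ligands, and Rgcc a small regulator of the cell cycle that binds the kinase CDK1. Parm1 encodes a mucin-like membrane protein studied in the ovary for its part in progesterone metabolism. Prlr encodes the prolactin receptor, through which prolactin maintains the rodent corpus luteum, and Ptgfr the receptor for prostaglandin F2-alpha, which brings about its regression.

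Expression was given as TPM, a share of all transcripts corrected for transcript length, so levels can be compared between genes. TPM holds no sequencing depth, and the depth of each library is unknown. The 8 libraries correlated at 0.970 to 0.991 on the log2 scale. The largest component of variation, 34.9% of the variance, mixed the genotypes: on it WT replicate 1 stood with knockout replicates 1, 2 and 4, at values of 10.6 to 21.2, and knockout replicate 3 with WT replicates 2, 3 and 4, at -25.8 to -3.55 (exact 2-sided permutation p = 0.486 between genotypes). Knockout replicate 3 and WT replicate 1 therefore lay among libraries of the other genotype on this component, and the marker results below are given with and without them. The labels name no batch. Pgr, the targeted gene, held 2.01 to 3.52 TPM in knockout and 0.756 to 1.56 TPM in WT, so that every knockout library lay above every WT library. Its log2 change of 0.88 had an unadjusted limma p of 0.000708 and an adjusted p of 0.445. Knockout replicate 3 (2.01 TPM) and WT replicate 1 (1.56 TPM) were thus each on the side of their own group, though next to each other. The gene-level value sums the A and B isoforms and does not show the loss of A itself. An exchange of the labels of these 2 libraries was not tested, and each value for knockout against WT takes the labels as given. All 8 granulosa cell markers passed the filter, and the most abundant, the inhibin subunit gene Inha, held 2994 to 4645 TPM over the 8 libraries.

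None of the 5 markers passed the threshold between genotypes, and in all 5 the knockout and WT values overlapped. Sfrp4, Rgcc and Ptgfr had higher means in knockout, with ratios of means of 1.38, 1.23 and 1.36, and Parm1 and Prlr had lower means, with ratios of 0.937 and 0.907. Differences were tested with limma on log2(TPM + 1), with Benjamini-Hochberg adjustment over all genes tested and a threshold of 0.05. By this rule 2 of 14472 genes (0.0138%) passed, and 0 of 5 members is not apart from that background. Before adjustment, 913 genes and none of the members had p under 0.05. Non-overlapping groups were found for 3.42% of all genes and for 0 of the 5 members. The median log2 change of the members was 0.30, against -0.023 over all genes tested. P-values measure the spread between these pools of mice, and fewer cells of a type cannot be told apart from less RNA per cell in such bulk samples.

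**Figure D1:**
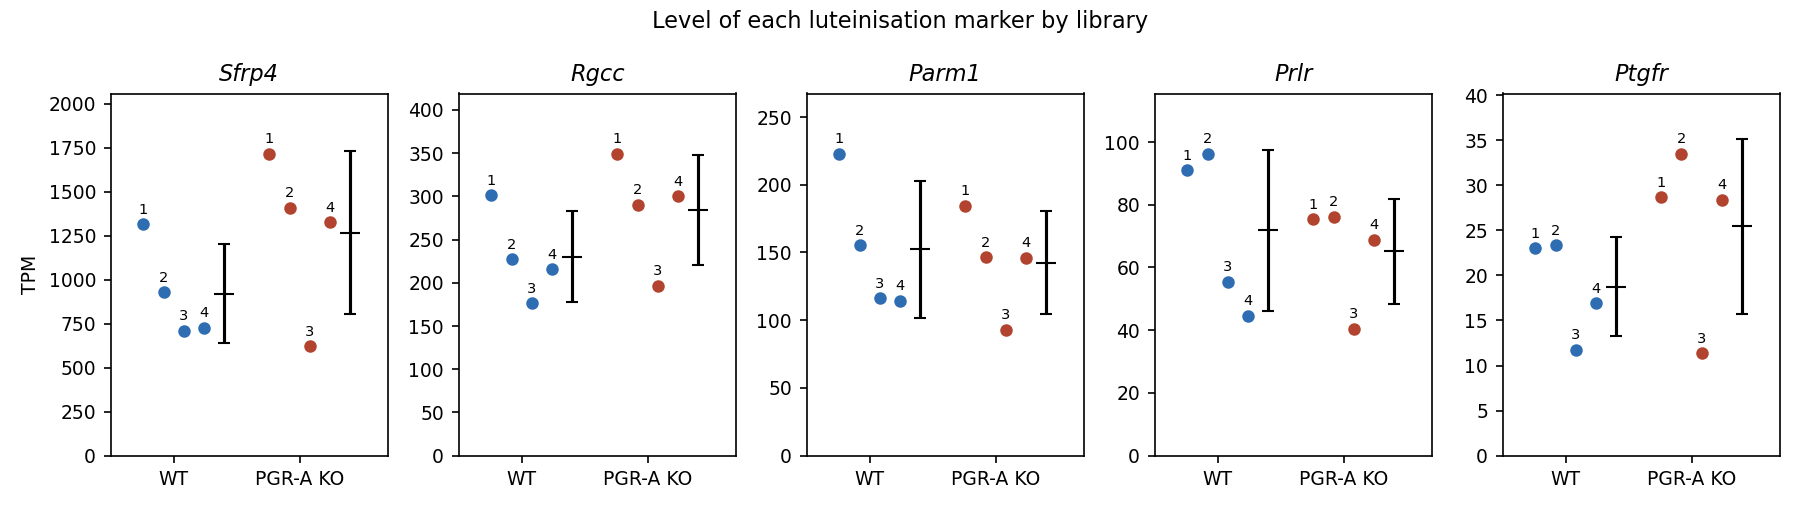
TPM of each marker (y axis, from 0, a separate scale per gene) in the 4 WT (blue) and 4 knockout (red) libraries, numbered by replicate; the bar to the right of each group is its mean ± SD. The groups overlap in every gene, and knockout replicate 3 is the lowest knockout library in all 5.

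The order of levels was the same in all 8 libraries: Sfrp4, then Rgcc, Parm1, Prlr and Ptgfr. Sfrp4 ranked 100th of the genes tested by mean TPM and lay above 99.3% of them. Rgcc lay above 96.8%, Parm1 above 94.1%, Prlr above 85.5% and Ptgfr above 58.0%. Over the 8 libraries the ranges of Rgcc (176 to 349 TPM) and Parm1 (92.9 to 223 TPM) overlapped, and those of Parm1 and Prlr (40.5 to 96.2 TPM) overlapped slightly. The ranges of Sfrp4 (622 to 1716 TPM) and Ptgfr (11.3 to 33.5 TPM) did not overlap with those of their neighbours.

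Sfrp4 (ENSMUSG00000021319.7, chromosome 13, 19623104 to 19632994, plus strand, mm10) encodes the secreted WNT antagonist and was the most abundant marker. Knockout replicates 1 to 4 held 1716, 1409, 622 and 1327 TPM, and WT replicates 1 to 4 held 1315, 929, 710 and 727 TPM. The highest 3 libraries were knockout and the lowest was the remaining knockout library, so the groups overlapped through knockout replicate 3 alone. The means were 1269 ± 462 TPM (SD, n = 4) in knockout and 920.2 ± 281 TPM (SD, n = 4) in WT. The log2 change was 0.42 (SE 0.31, 95% interval -0.30 to 1.13; limma adjusted p = 0.857, exact permutation p = 0.343). Without knockout replicate 3 alone it was 0.73 (SE 0.21, adjusted p = 0.362).

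Rgcc (ENSMUSG00000022018.7, chromosome 14, 79288756 to 79301645, minus strand), the cell cycle regulator, varied least among the 5, with a highest library 1.98 times the lowest. Knockout replicates 1 to 4 held 349, 290.5, 197 and 299.9 TPM, and WT replicates 1 to 4 held 302, 227, 176 and 216 TPM. All but knockout replicate 3 of the knockout libraries were above WT replicates 2, 3 and 4, and WT replicate 1 stood with them. The means were 284 ± 63.6 TPM (SD, n = 4) in knockout and 230.3 ± 52.4 TPM (SD, n = 4) in WT, a log2 change of 0.30 (SE 0.20, 95% interval -0.15 to 0.75; limma adjusted p = 0.837, exact permutation p = 0.286). Rgcc is also known from capillary endothelium. Of the 8 endothelial markers, 5 passed the filter and none was at 0 in all libraries. All 8 summed to 16.4 to 29.3 TPM in knockout and 21.2 to 43.6 TPM in WT. Like Rgcc, 2 of the 5 tested had knockout replicate 3 and WT replicates 3 and 4 as their lowest 3 libraries (40%). The same was true of 10.6% of all genes. The part of endothelial cells in the Rgcc values was not tested.

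Parm1 (ENSMUSG00000034981.9, chromosome 5, 91517615 to 91626894, plus strand), the mucin-like membrane protein, had its highest library in WT. The levels were 185, 147, 92.9 and 146 TPM in knockout replicates 1 to 4 and 223, 155, 116 and 114 TPM in WT replicates 1 to 4. WT replicate 1 was the highest and knockout replicate 3 the lowest of the 8, and the other 6 libraries mixed between 114 and 185 TPM. Means of 143 ± 37.7 TPM (SD, n = 4) in knockout and 152 ± 50.7 TPM (SD, n = 4) in WT gave a log2 change of -0.081 (SE 0.25, 95% interval -0.65 to 0.49; limma adjusted p = 0.964, exact permutation p = 0.80). Its sign turned without knockout replicate 3 (0.11) or without WT replicate 1 (0.12).

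Prlr (ENSMUSG00000005268.20, chromosome 15, 10177238 to 10349180, plus strand), the prolactin receptor, held 75.3, 76.1, 40.5 and 68.8 TPM in knockout replicates 1 to 4 and 91.1, 96.2, 55.4 and 44.7 TPM in WT replicates 1 to 4. The highest 2 libraries were WT replicates 2 and 1, while the lowest 3 came from both genotypes. The means of 65.2 ± 16.8 TPM (SD, n = 4) in knockout and 71.9 ± 25.6 TPM (SD, n = 4) in WT differed by less than the SD of either group. The log2 change was -0.11 (SE 0.28, 95% interval -0.74 to 0.53; limma adjusted p = 0.961, exact permutation p = 0.771), and its sign turned without knockout replicate 3 (0.10), WT replicate 1 (0.027) or WT replicate 2 (0.053). GENCODE M21 lists 12 Prlr transcripts, 7 of them coding. The receptor is known in a long and in short forms, which the gene-level value sums.

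Ptgfr (ENSMUSG00000028036.6, chromosome 3, 151796502 to 151837630, minus strand), the prostaglandin receptor, was the least abundant marker and had the widest spread, its highest library holding 2.95 times the lowest. Knockout replicates 1 to 4 held 28.7, 33.5, 11.3 and 28.4 TPM, and WT replicates 1 to 4 held 23.0, 23.4, 11.8 and 16.9 TPM. As with Sfrp4, the knockout supplied both the highest 3 libraries and the lowest one, and the groups overlapped through knockout replicate 3 alone. The means were 25.5 ± 9.71 TPM (SD, n = 4) in knockout and 18.8 ± 5.53 TPM (SD, n = 4) in WT, a log2 change of 0.37 (SE 0.33, 95% interval -0.38 to 1.12; limma adjusted p = 0.889, exact permutation p = 0.40). Without knockout replicate 3 it was 0.70 (SE 0.22, adjusted p = 0.365). The gene model Gm43618, on the opposite strand, overlaps Ptgfr and held means of 0.621 TPM in knockout and 0.430 TPM in WT.

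The 5 markers were low in the same libraries, with libraries of both genotypes among the high and the low. Knockout replicate 3, WT replicate 3 and WT replicate 4 were the lowest 3 libraries for all 5 genes. The same 3 libraries stood at one end of the largest component of variation, at -25.8, -20.9 and -18.5, with WT replicate 2 next at -3.55. The split of the markers thus followed a component that describes the whole table. Among all 14472 genes tested, 10.6% had these same 3 lowest libraries, and 9.52% had these 3 as the highest. Knockout replicate 3 was the lowest of the 8 in 4 genes, Rgcc being the exception, where WT replicate 3 was lowest. Knockout replicates 1 and 2 were among the highest 4 libraries in all 5 genes and WT replicate 1 in 4 of 5. These counts describe an order that was seen in the values.

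**Figure D2:**
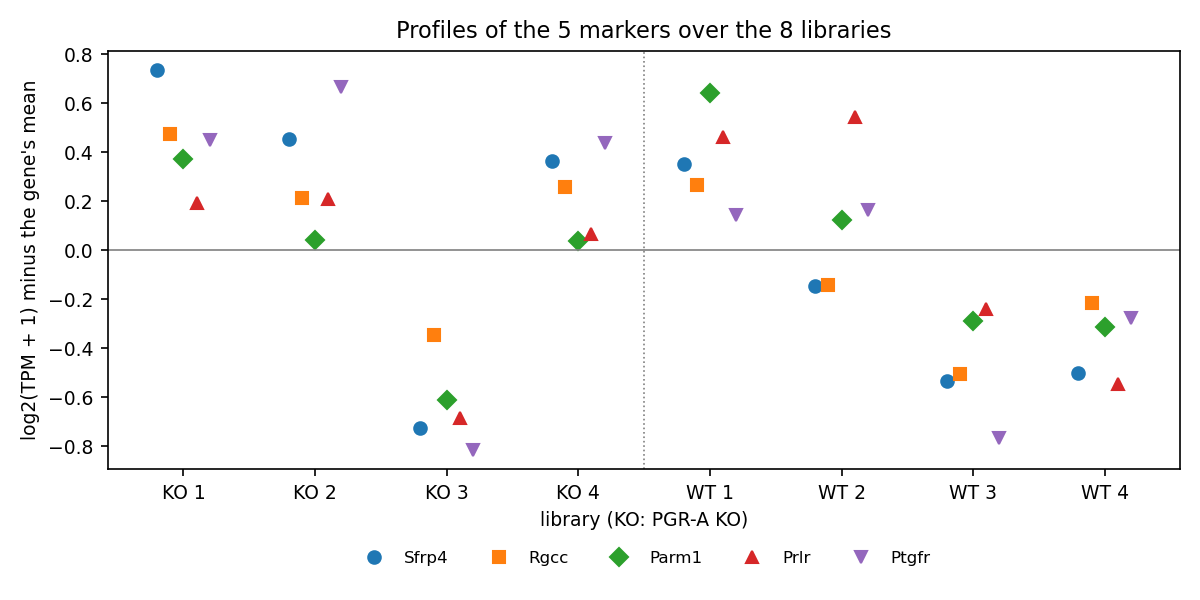
Each marker's log2(TPM + 1) minus its own mean over the 8 libraries (y axis), by library (x axis; KO stands for the PGR-A KO libraries), with 1 symbol per gene. All 5 symbols lie below 0 in knockout replicate 3 and in WT replicates 3 and 4, and all 5 lie above 0 in knockout replicates 1, 2 and 4 and in WT replicate 1.

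Promoter sequences for 4 of the 5 markers (Rgcc, Parm1, Prlr and Ptgfr) were taken from RefSeq on GRCm38.p6, since the markers shared their lowest libraries. Each window of 300 bases held 250 bases before and 50 after a start site, and the 4 genes had 6 windows, 3 of them from Prlr. Searched on both strands were TGTGGT (RUNX factors), TGACG (core of the cAMP response element), AAGGTCA (NR5A receptors), TGTTCT (core of the steroid receptor element) and TTCNNNGAA (STAT5). Only Rgcc and 1 Prlr window held any of them. Those 2 are shown with the matches in capitals, and Parm1, which held none, for comparison. Each stretch ends before its start site.
Rgcc, chr14:79301646-79301885, minus strand: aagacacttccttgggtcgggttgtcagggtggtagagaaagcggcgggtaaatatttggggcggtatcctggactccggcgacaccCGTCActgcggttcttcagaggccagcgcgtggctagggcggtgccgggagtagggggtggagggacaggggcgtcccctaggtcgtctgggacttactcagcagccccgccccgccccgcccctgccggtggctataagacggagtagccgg
Prlr, chr15:10223656-10223905, plus strand: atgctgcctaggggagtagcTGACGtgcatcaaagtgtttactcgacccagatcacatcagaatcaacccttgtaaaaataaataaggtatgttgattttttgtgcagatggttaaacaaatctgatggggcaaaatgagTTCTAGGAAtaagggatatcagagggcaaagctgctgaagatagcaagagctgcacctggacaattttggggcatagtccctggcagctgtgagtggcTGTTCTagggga
Parm1, chr5:91517450-91517614, plus strand: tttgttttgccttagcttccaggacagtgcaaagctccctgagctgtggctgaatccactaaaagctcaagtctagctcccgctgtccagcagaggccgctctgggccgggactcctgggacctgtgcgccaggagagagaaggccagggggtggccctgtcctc

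The Rgcc stretch holds 1 match to the cAMP response core on its reverse strand. The Prlr stretch, before an internal start site, holds 1 match each to the cAMP response core, the STAT5 motif and the steroid receptor core. Of 32851 mouse promoter windows, 20.8% hold the cAMP response core, 19.0% the steroid receptor core, 8.30% the STAT5 motif, 16.8% the RUNX motif and 4.72% the NR5A motif. The matches thus involve motifs that are common in such windows, and no motif was shared by all 4 genes.

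Without knockout replicate 3 and WT replicate 1 together, all 5 log2 changes were above 0 and Rgcc and Sfrp4 passed the threshold. These libraries were left out because of their values, so these numbers are no test of genotype. In that fit of 6 libraries 3.84% of genes were called higher in knockout, against 2 of the 5 members. The log2 changes were 0.60 for Rgcc (SE 0.11, limma adjusted p = 0.0233), 0.91 for Sfrp4 (SE 0.14, adjusted p = 0.0128), 0.81 for Ptgfr (SE 0.21, adjusted p = 0.0588), 0.31 for Parm1 (SE 0.14, adjusted p = 0.224) and 0.24 for Prlr (SE 0.24, adjusted p = 0.607).

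**Figure D3:**
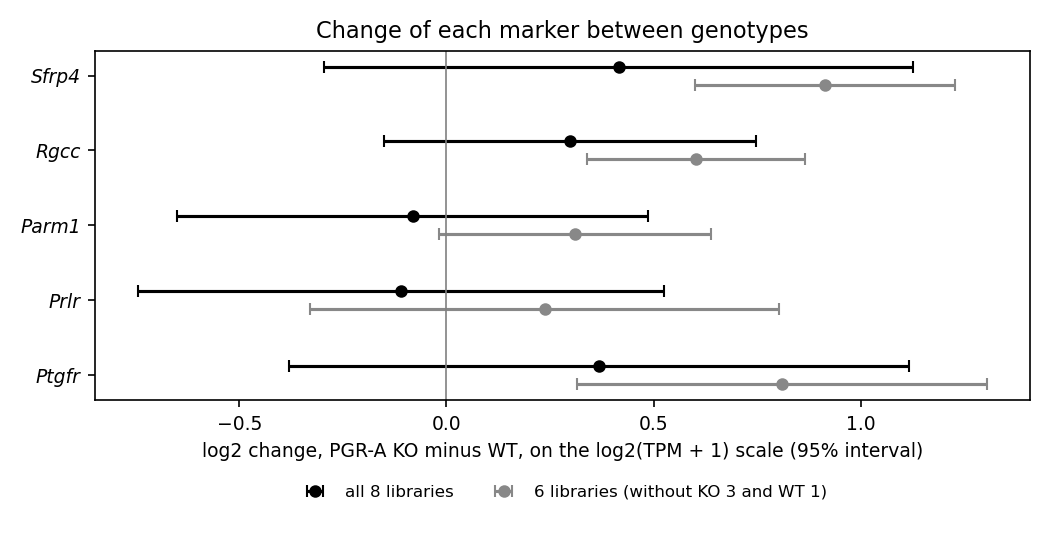
Log2 change of each marker, as log2(TPM + 1) in knockout minus that in WT (x axis), with 95% intervals, for all 8 libraries (black) and for the 6 left without knockout replicate 3 and WT replicate 1 (grey). With all 8 libraries each interval holds 0; with 6 the intervals of Sfrp4, Rgcc and Ptgfr do not.

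Since the markers shared their lowest libraries, ratios between them were also taken within each library. This step was chosen after the values were seen and is given without a test. Of the 10 ratios, 2 did not overlap between genotypes, both of them ratios to Parm1. The Sfrp4 level was 9.29, 9.61, 6.70 and 9.07 times the Parm1 level in knockout replicates 1 to 4 and 5.90, 5.98, 6.09 and 6.36 times in WT replicates 1 to 4. The WT libraries kept this ratio within a narrow range (6.08 ± 0.200, SD, n = 4) although Sfrp4 and Parm1 each varied widely among them, and the knockout libraries all lay above it (8.67 ± 1.33, SD, n = 4). The Rgcc level was 1.89, 1.98, 2.12 and 2.05 times that of Parm1 in knockout replicates 1 to 4 and 1.35, 1.46, 1.51 and 1.89 times in WT replicates 1 to 4. WT replicate 4 came to within rounding of the lowest knockout library. Of 14313 genes listed above 0 in all libraries, 1.37% had a ratio to Parm1 that was higher in all knockout than in all WT libraries. No such percentage was taken for ratios to the other markers, and the 2 ratios are not independent, since both have Parm1 as denominator.

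**Figure D4:**
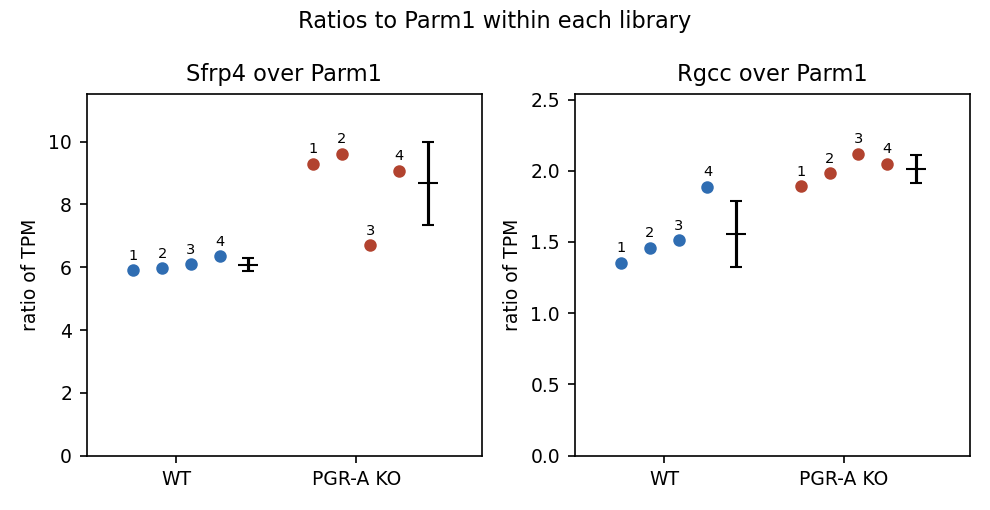
Ratio of the TPM of Sfrp4 to Parm1 (left) and of Rgcc to Parm1 (right), from 0 on the y axis, in the 4 WT (blue) and 4 knockout (red) libraries, numbered by replicate, with mean ± SD at the side of each group. All knockout libraries lie above all WT libraries in both ratios, by a small margin for knockout replicate 3 on the left and WT replicate 4 on the right.

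Genes whose profiles over the 8 libraries came nearest to a marker were named by the root mean square of the difference between profiles on the log2(TPM + 1) scale, each gene's mean taken away, over 10309 genes with a mean of at least 5 TPM. Nearest to Rgcc were Vcpkmt (0.062) and the RNA-binding protein gene Ybx1 (0.063), and nearest to Parm1 were Stxbp6 (0.075) and the protease gene Adamts9 (0.079). Nearest to Sfrp4 were the matrix metalloproteinase gene Mmp19 (0.090) and the sulfotransferase gene Chst15 (0.095). Nearest to Prlr were the fatty acid elongase gene Elovl6 (0.113) and the ephrin receptor gene Epha7 (0.116), and nearest to Ptgfr were the hyaluronidase gene Cemip (0.128) and Efhd1 (0.162). Among the markers themselves, Sfrp4 was the 14th nearest gene to Ptgfr (0.220) and Parm1 the 38th nearest to Prlr (0.203). Rgcc and Sfrp4 were about as close (0.215), though Sfrp4 was the 821st nearest gene to Rgcc and Rgcc the 145th nearest to Sfrp4. Rgcc and Parm1 differed by 0.231. The remaining pairs were farther apart, at 0.283 to 0.367. Prlr was only the 5043rd nearest gene to Rgcc (0.339), and Ptgfr the 4833rd nearest to Parm1 (0.367).

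Other genes known to rise at luteinisation often had the same lowest libraries as the markers. The related lists below share some genes, and higher and lower means are counted on the log2 scale. Of 14 such genes, all tested, 10 had knockout replicate 3 and WT replicates 3 and 4 as their lowest 3 libraries (71.4%, against 10.6% of all genes). Among them were the steroidogenic genes Star, Cyp11a1 and Hsd3b1, the cell cycle inhibitor gene Cdkn1a, the transcription factor genes Cebpa, Runx1 and Runx2, the kinase gene Sgk1 and the protease inhibitor gene Timp1. Star, which carries cholesterol into mitochondria, held 1039, 852.5, 484 and 867 TPM in knockout replicates 1 to 4 and 1107, 802, 588 and 525 TPM in WT replicates 1 to 4. Between genotypes 0 of the 14 passed the threshold, 11 having higher and 3 lower means, with a median log2 change of 0.12. Timp1 had the lowest p of them, at 418 ± 138 TPM (SD, n = 4) in knockout and 281 ± 86.5 TPM (SD, n = 4) in WT (log2 change 0.54, limma adjusted p = 0.796). Hsd3b1, which makes progesterone from pregnenolone, was the most abundant, at 1872 ± 385 TPM (SD, n = 4) in knockout and 2305 ± 736 TPM (SD, n = 4) in WT (adjusted p = 0.867).

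Granulosa genes known to fall at luteinisation had lower means in knockout in 8 of 10 cases, with a median log2 change of -0.40, but 0 passed. Inhbb, which encodes an activin subunit, had the lowest p of them and held 160, 184, 126 and 107 TPM in knockout replicates 1 to 4 and 96.9, 446, 363 and 276 TPM in WT replicates 1 to 4. Its groups overlapped through WT replicate 1 alone, the lowest of the 8 libraries (log2 change -0.86, SE 0.42, limma adjusted p = 0.795). Hsd17b1, an enzyme of estradiol synthesis, was the most abundant at 221 ± 24.0 TPM (SD, n = 4) in knockout and 295 ± 104 TPM (SD, n = 4) in WT (adjusted p = 0.847). The markers' lowest 3 libraries were shared by 1 of the 10, Fshr (10%, against 10.6% of all genes).

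Prolactin signalling beyond the receptor runs through the kinase JAK2 and the transcription factors STAT5A and STAT5B, and SOCS proteins restrain it. Of 13 such genes tested 0 passed, 5 having higher and 8 lower means, with a median log2 change of -0.050. The hormone gene Prl was listed at 0 in all 8 libraries. Of the 13 tested, 4 shared the markers' lowest 3 libraries (30.8%). Socs2 had the lowest p and the highest level of this list, with 364, 327, 310 and 346 TPM in knockout replicates 1 to 4 and 547, 549.6, 407 and 399 TPM in WT replicates 1 to 4. All WT libraries of Socs2 lay above all knockout libraries, the only gene of the 13 tested whose groups did not overlap, where 3.42% of all genes did not. The log2 change of Socs2 was -0.48 (SE 0.12, 95% interval -0.76 to -0.21), with an unadjusted limma p of 0.00342 and an adjusted p of 0.610.

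Prostaglandin F2-alpha acts through PTGFR on Gq proteins, phospholipase C and protein kinase C. Of 19 tested genes for its supply and signalling 0 passed, with 11 higher and 8 lower means and a median log2 change of 0.016. Cbr1, a carbonyl reductase, had the lowest p, at 28.8 ± 1.49 TPM (SD, n = 4) in knockout and 33.2 ± 2.54 TPM (SD, n = 4) in WT (log2 change -0.19, limma adjusted p = 0.783). The aldose reductase gene Akr1b3, whose product can make prostaglandin F2-alpha, was the most abundant, at 256 ± 28.1 TPM (SD, n = 4) in knockout and 253 ± 17.0 TPM (SD, n = 4) in WT (adjusted p = 0.985). Of the 19, 6 had the markers' lowest 3 libraries (31.6%), among them Ptgs2, the inducible prostaglandin synthase gene. Ptgs2 held 48.3, 37.0, 13.9 and 33.9 TPM in knockout replicates 1 to 4 and 43.7, 30.3, 16.3 and 13.3 TPM in WT replicates 1 to 4.

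WNT pathway genes, the partners of SFRP4, had no member past the threshold among 25 tested, with 9 higher and 16 lower means. The markers' lowest 3 libraries were shared by 1 of the 25 (4.00%, against 10.6% of all genes). The effector gene Ctnnb1, the most abundant, held 350 ± 19.0 TPM (SD, n = 4) in knockout and 362 ± 4.45 TPM (SD, n = 4) in WT (log2 change -0.049, limma adjusted p = 0.927). The receptor gene Fzd2, with the lowest p, held 7.20 ± 0.811 TPM (SD, n = 4) in knockout and 8.56 ± 1.03 TPM (SD, n = 4) in WT (adjusted p = 0.795).

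Genes of progesterone synthesis and breakdown, which bear on Parm1, and cell cycle genes, which bear on Rgcc, had no member past the threshold either. Of 14 progesterone genes, 8 had higher and 6 lower means and 5 shared the markers' lowest 3 libraries (35.7%). Akr1c14, an enzyme of progestin breakdown, had the lowest p, at 153 ± 57.5 TPM (SD, n = 4) in knockout and 268 ± 151 TPM (SD, n = 4) in WT (log2 change -0.69, limma adjusted p = 0.808). Of 16 cell cycle genes, 13 had higher and 3 lower means and 2 shared the markers' lowest 3 libraries (12.5%). The cyclin gene Ccne2 had the lowest p, at 14.4 ± 1.93 TPM (SD, n = 4) in knockout and 11.4 ± 1.21 TPM (SD, n = 4) in WT (log2 change 0.31, adjusted p = 0.776), and the kinase gene Cdk4 the highest level, at 547 ± 29.0 and 528 ± 63.8 TPM (SD, n = 4; adjusted p = 0.947).

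**Figure D5:**
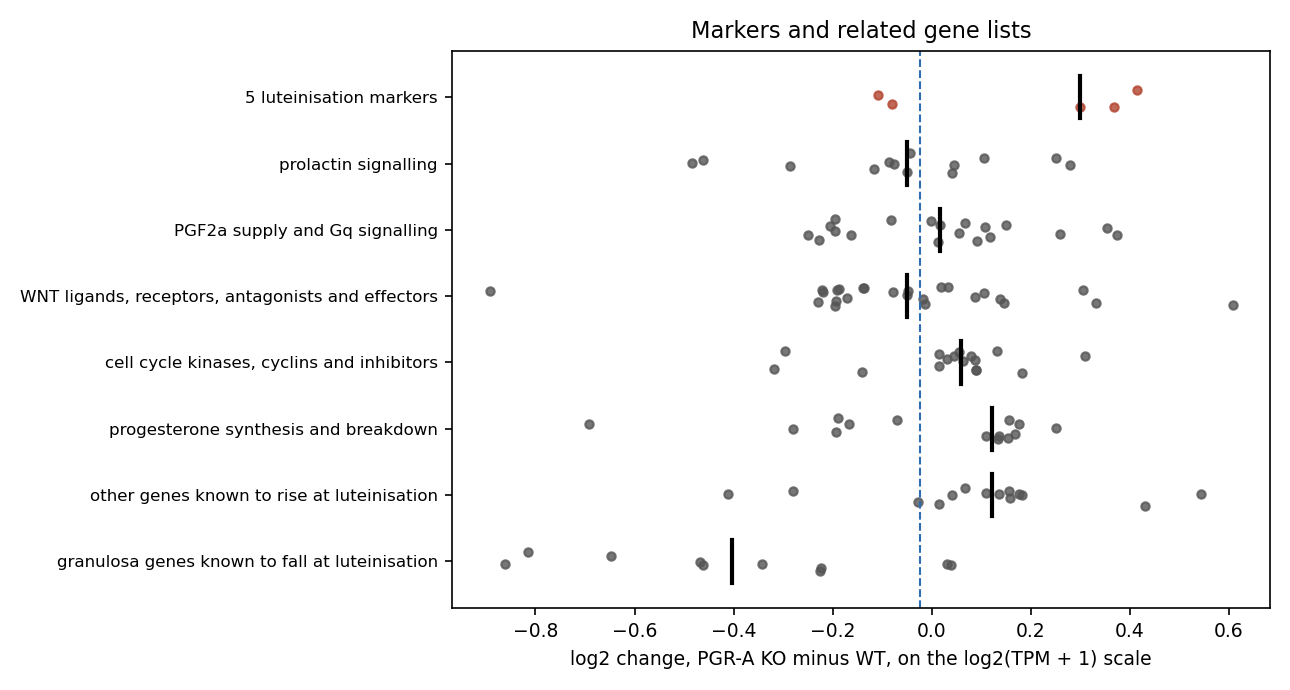
Log2 change, as log2(TPM + 1) in knockout minus that in WT (x axis), of the 5 markers (red) and of each tested gene of 7 related lists (grey); black bars are list medians and the dashed line the median of all genes tested. The medians run from -0.40 for the genes known to fall at luteinisation to 0.30 for the markers, and no gene shown passed the threshold.

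In the fit without knockout replicate 3 and WT replicate 1, genes of each related list passed, a description that again rests on libraries left out for their values. Against 3.84% of all genes, 6 of the 14 genes known to rise were higher in knockout, among them Timp1 (log2 change 1.01), Sgk1 (0.87), Runx2 (0.65), Cdkn1a (0.58) and Scarb1 (0.48), a gene of cholesterol uptake. Against 4.17% of all genes called lower, 4 of the 10 genes known to fall were lower: Inhbb (-1.27), the estrogen receptor gene Esr2 (-0.87), the transcription factor gene Foxo1 (-0.84) and Hsd17b1 (-0.63). Only 1 of the 25 WNT genes was called, Sfrp2 (1.11, higher), a secreted WNT antagonist related to Sfrp4. That is no more than the share of all genes called in either direction. The calls in the remaining lists were 5 of 19 prostaglandin, 3 of 13 prolactin signalling, 4 of 14 progesterone and 2 of 16 cell cycle genes. Higher among the prostaglandin genes were Slco2a1 (0.80), a prostaglandin transporter gene, Ptgfrn (0.67), the synthase gene Ptgs1 (0.63) and the protein kinase C gene Prkca (0.56), and lower was Hpgd (-0.73), whose product breaks prostaglandins down. Stat3 (0.39) and Socs3 (0.45) were higher among the prolactin signalling genes, where Esr2 is also counted. The progesterone genes called included Fdxr (0.45) and Scarb1, which were higher, and Akr1c14 (-1.29), which was lower, and among the cell cycle genes Ccnd3 (0.34) and Cdkn1a were higher. In the same fit 5 of the 7 tested macrophage and leukocyte markers were lower in knockout, and their part in these changes was not tested.

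Markers of other cells in these libraries also varied. The 8 oocyte markers, all tested and all with a higher mean in knockout, none past the threshold, summed to 673 to 1216 TPM in knockout and 486 to 935 TPM in WT, with the highest sum in knockout replicate 3. Their most abundant gene Gdf9 held 184 to 316 TPM in knockout and 132 to 249 TPM in WT. The 8 macrophage and leukocyte markers, 7 of them tested, summed to 52.4 to 110 TPM in knockout and 82.0 to 112 TPM in WT. The highest knockout sum of this list was again in knockout replicate 3, the library with the lowest levels of 4 markers. The 6 smooth muscle and pericyte markers, 5 of them tested, had their 3 highest sums in the libraries where the 5 luteinisation markers were lowest, at 89.5 TPM in knockout replicate 3, 99.8 TPM in WT replicate 3 and 73.8 TPM in WT replicate 4, against 59.5 to 68.2 TPM in the rest. Of the 5 tested, 3 genes had exactly these 3 libraries highest (9.52% of all genes did), among them the actin gene Acta2, the most abundant. The same held for 2 of the 7 tested macrophage and leukocyte markers and 2 of the 8 granulosa cell markers. It held for 0 genes of the other cell type lists. The smooth muscle and pericyte sums overlapped between genotypes, as did the theca, stromal, surface epithelial and erythroid sums. No cell type list had a marker at 0 in all libraries. On the log2 scale, means were lower in knockout for all 6 surface epithelial, 7 of 8 granulosa and 6 of 7 tested macrophage and leukocyte markers. Means were higher for all 4 erythroid markers and mixed in the endothelial, theca, stromal and smooth muscle lists. No cell type marker passed the threshold. The part of other cells in the marker levels was not tested.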

How the data were processed

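RNA of granulosa cell pools was sequenced from poly(A) libraries, 4 PGR-A KO and 4 WT, with group and replicate read off each title. The authors deposited TPM values per gene symbol, each library summing to between 994519 and 997022. Per the submitters' processing notes FastQC, Salmon, limma, edgeR and mm10 were used; the sources used here do not give versions, roles or how transcripts were summed to genes. Genes reaching 1 TPM in 4 or more libraries were tested by limma (version 3.58.1, R 4.3.3; trended prior, no covariates) on log2(TPM + 1). P-values are 2-sided. Fold changes on this scale understate those of low genes. Exact permutation tests used the 70 assignments of 4 and 4 libraries (smallest p 0.0286). The fit was tested on simulated data. The members, the 7 pathway and 9 cell type lists and the tests were chosen with earlier results of these data known. Named genes were the members, Pgr, the lowest p and highest level of each pathway list, the highest level of each cell type list and the 2 nearest profiles per member; Star, Ptgs2, Prl, the genes sharing the library order and those called without 2 libraries were named after their values were seen. Most cell type lists are given by sums and counts only. Positions are from GENCODE M21 (mm10). Alternatives were pseudocounts of 0.1 and 5, no filter, a minimum of 5 TPM, median-of-ratios scaling, quantile normalization, robust or untrended empirical Bayes, a replicate block and libraries left out. The values of 1 listed gene are not reported here.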

Additional observations from a re-analysis of the deposited data

Results flagged for a closer look

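In 7 of 74 gene and genotype sets, 1 library lay far from the remaining 3, where about 3.7 such sets arise by chance. None was a set of the 5 markers. Some of the genes were chosen for their likeness to a marker, so the sets are not independent and the count is no test. Knockout replicate 3 was low in the genes nearest to Rgcc and Sfrp4, with Vcpkmt at 55.5 TPM (the other knockout libraries 86.6 to 92.3 TPM) and Mmp19 at 11.97 TPM (26.4 to 28.6 TPM). Both genes were chosen for profiles close to a marker in which this library was already the lowest knockout library. Their low values there follow largely from that choice. Against the other knockout libraries, knockout replicate 3 was high in the macrophage gene Lyz2 at 70.3 TPM (30.7 to 35.6 TPM). It was also above them in the epithelial gene Krt8 at 30.5 TPM (27.7 to 27.9 TPM). The WT libraries held 50.5 to 73.2 TPM of Lyz2 and 30.1 to 35.3 TPM of Krt8, so both values lay within the WT range. WT replicate 2 was high in Hsd3b1 at 3401 TPM (the other WT libraries 1846 to 2060 TPM) and in Aldh1a1 at 212 TPM (58.0 to 77.5 TPM). WT replicate 1 was high in Akr1b3 at 278 TPM (242 to 246 TPM).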

How the results depend on the processing

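With all 8 libraries, 0 of the 5 markers and 0 genes of the 7 pathway lists passed under every alternative run, and the sign of each marker's log2 change was kept. The 2 genes called over the whole table became 1 with a pseudocount of 5 and 3 with a pseudocount of 0.1. Scaling moved the median of all genes from -0.023 to 0.005 (median-of-ratios) or 0.014 (quantile). With a library left out, 0 to 6 genes were called and no marker; Parm1 ran from -0.22 to 0.12, Prlr from -0.31 to 0.10, Rgcc from 0.18 to 0.46, Sfrp4 from 0.24 to 0.73 and Ptgfr from 0.17 to 0.70. The sign turned for Parm1 without knockout replicate 3 (0.11) or WT replicate 1 (0.12), and for Prlr without knockout replicate 3 (0.10), WT replicate 1 (0.027) or WT replicate 2 (0.053). Without knockout replicate 3 and WT replicate 1 together, 1131 of 14114 genes were called, 3.84% higher and 4.17% lower in knockout. Among them were 2 markers, Rgcc (0.60) and Sfrp4 (0.91), and Parm1 (0.31) and Prlr (0.24) turned sign. That pair of omissions also gave calls in each list, here set beside the numbers tested with all 8 libraries. Called were 3 of 13 prolactin, 5 of 19 prostaglandin, 1 of 25 WNT, 2 of 16 cell cycle and 4 of 14 progesterone genes. Of the genes known to rise at luteinisation 6 of 14 were called, and of those known to fall 4 of 10. The WNT count was no more than the share called in either direction over all genes. The cause of these calls was not tested. Same-numbered libraries correlated at 0.361, -0.109, 0.393 and -0.290 in their deviations from the group means, and 1 of 4 knockout libraries matched its own number best. The labels do not say whether same-numbered libraries were paired, and 4 correlations cannot settle it. With the replicate block 2 genes and no marker were called, with adjusted p of 0.370 to 0.906 for the markers. Unadjusted limma p in the block fit was 0.00663 for Rgcc, 0.0241 for Ptgfr, 0.0371 for Sfrp4, 0.514 for Parm1 and 0.542 for Prlr. Over all genes, 1368 had unadjusted p under 0.05 in the block fit, against 913 in the main fit.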
